A study of Mus musculus with 24 samples.

Results

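Troponins and myosin light chains are small proteins of the contractile filaments that exist as slow and fast isoforms, each made from a gene of its own. The genes followed here were chosen by name as known isoform pairs, 10 genes in 5 pairs: troponin T (Tnnt1 slow, Tnnt3 fast), troponin I (Tnni1, Tnni2), troponin C (Tnnc1, Tnnc2), the essential myosin light chain (Myl3, Myl1) and the regulatory myosin light chain (Myl2, Mylpf). All 10 were found by symbol among the gene identifiers counted. Troponin sits on the thin filament and switches contraction on when calcium binds troponin C, while troponin I holds the switch off and troponin T ties the complex to tropomyosin. The light chains wrap around the lever arm of the myosin head and tune its movement. Slow isoforms belong to fatigue-resistant fibers with slow myosin and fast isoforms to fibers that contract quickly, and the tibialis anterior (TA) of the mouse is known as a fast muscle.

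RNA was sequenced from the left TA of 24 wild-type C57BL/6J male mice aged 5 to 7 weeks, 6 separate mice in each of 4 groups. PBMT mice received photobiomodulation of the lower limbs under anesthesia, with light of 830 nm at 25 mW/cm2 for 20 min and a dose of 30 J/cm2. Controls went through the same shaving and 20 min of anesthesia but got no light. Heat and sham light had no control of their own in this design. Tissue was taken 24 h after the light, from sedentary mice or from fatigued mice that had run on a treadmill just before. Sequencing split by exercise state into separate projects, so state and project cannot be told apart. Sedentary mice had 43271093 to 52775844 counts each, and fatigued mice had 53122528 to 68726155. The muscle fiber genes Ckm and Acta1 were abundant in every mouse, with Ckm between 14965 and 23740.0 CPM (counts scaled to a common library size by trimmed means of M-values over all 24 mice).

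The mice farthest from the mean of their group were fatigued PBMT replicate 5 and sedentary control replicate 4, with root mean square distances of 0.509 and 0.501 on the log2 scale, against 0.304 to 0.407 in the other mice. In sedentary control replicate 4, RNAs encoded by mitochondrial DNA made up 3.24% of the counts, against 13.8% to 17.1% in the other 11 sedentary mice. The 5 fast genes together made up 5.87% of its counts, against 4.26% to 4.98% in those 11 mice. Its 95% Wilson intervals, which cover counting error only, ran from 3.24% to 3.25% and from 5.86% to 5.87%.

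The fast genes were abundant and the slow genes scarce. Across the 24 mice the 5 fast genes took 4.26% to 5.89% of all counts. The 5 slow genes took 0.0029% to 0.0091%, or 1733 to 4905 counts per mouse, and the lowest count of any of them was 11, for Tnnc1 in a fatigued control. Per kilobase of transcript, Tnnt3 had the highest mean level, 18312 ± 2419 CPM per kb (SD, n = 24 mice). Mylpf had 11350.1 ± 1364, Myl1 11149 ± 1316, Tnnc2 10579.7 ± 1750.1 and Tnni2 9034 ± 1714 CPM per kb, all SDs over mice of 4 groups. Tnnt3 lay above Mylpf in all 24 mice with no overlap within any group, and Tnnc2 lay above Tnni2 in all 24 mice, with ranges that overlapped in 3 of 4 groups. Mylpf lay above Myl1 in 13 and Myl1 above Tnnc2 in 18 of the mice, and both pairs of neighbours overlapped in all 4 groups. Among the slow genes Myl3 led with 45.4 ± 14.9 CPM per kb. Tnnt1 followed with 5.87 ± 4.01, Myl2 with 5.05 ± 4.30, Tnnc1 with 3.67 ± 3.48 and Tnni1 with 1.69 ± 1.21 CPM per kb. Myl3 lay above Tnnt1 in all 24 mice with no overlap within any group. Tnnt1 lay above Myl2 in 15, Myl2 above Tnnc1 in 18 and Tnnc1 above Tnni1 in 21 mice, and the first 2 of these pairs of neighbours overlapped in all 4 groups and the last in 2. Tnnt1 lay above both Tnnc1 and Tnni1 in all 24 mice, and in sedentary controls it had 5.06 ± 1.25 CPM per kb against 1.40 ± 0.37 for Tnni1 (SD, n = 6 mice). The order rests in part on the length used, that of the longest principal transcript. With exon union lengths, tried after these results had been seen, the means were 11649 for Tnnt3, 9257 for Tnnc2, 8187 for Mylpf, 4635 for Tnni2 and 4317 for Myl1 CPM per kb. Myl1 then lay above Tnnc2 in 0 and above Tnni2 in 10 mice, and Mylpf above Tnnc2 in 3. Among the slow genes Myl3 (20.8) still lay above Tnnt1 (2.74) in all 24 mice and Tnnt1 above Tnni1 (0.540) in all 24, while Tnnt1 lay above Tnnc1 (2.54) in 18 and Myl2 (2.30) above Tnnc1 in 11. In bulk muscle, fewer fibers of a type and less RNA per fiber cannot be told apart.

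**Figure D1:**
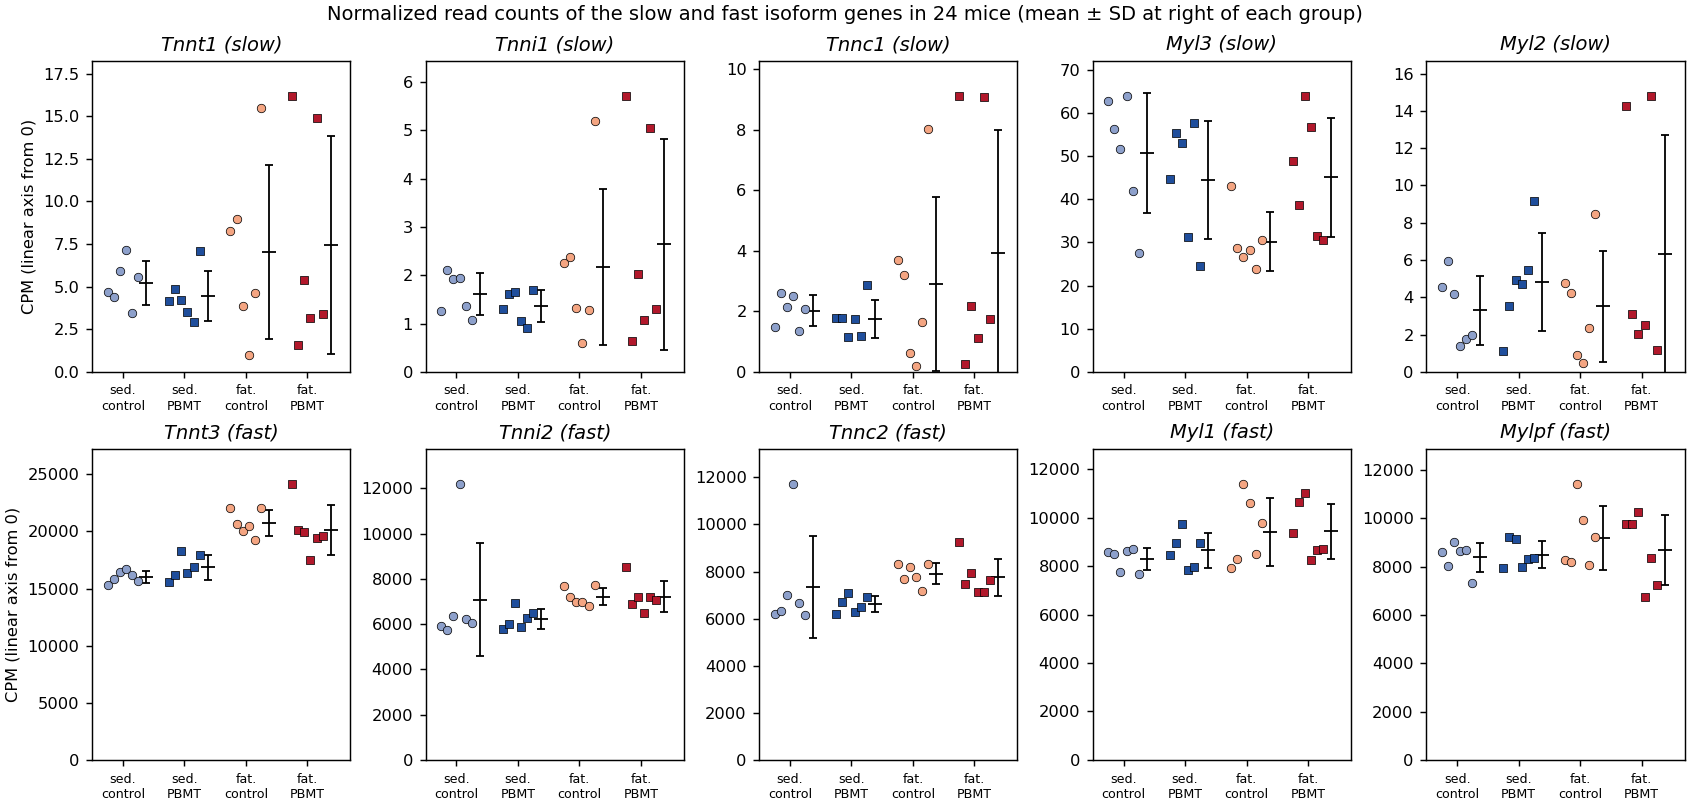
Normalized read counts (CPM, linear axes) of the 5 slow and the 5 fast genes in each of 24 mice, by group, with the mean and SD of the 6 mice beside the points of each group; SD bars are not drawn below 0. The 6 fatigued controls sit between 19227 and 22059 CPM for Tnnt3, above all 6 sedentary controls, and a few fatigued mice stand high in Tnnt1, Tnni1, Tnnc1 and Myl2.

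Positions are those of GENCODE on build GRCm38. The fast troponin genes Tnnt3 (ENSMUSG00000061723) and Tnni2 (ENSMUSG00000031097) both lie on chromosome 7, from 142498836 to 142516009 and from 142441808 to 142444410. Slow Myl3 (ENSMUSG00000059741) lies on chromosome 9 from 110741861 to 110769798. Slow Tnnt1 (ENSMUSG00000064179) lies on chromosome 7 from 4504570 to 4516382, Tnni1 (ENSMUSG00000026418) on chromosome 1 from 135779434 to 135810989 and Tnnc1 (ENSMUSG00000091898) on chromosome 14 from 31208312 to 31211729. Fast Tnnc2 (ENSMUSG00000017300), on chromosome 2 from 164777161 to 164779967, shares 592 exonic bases, or 74% of its exons, with the antisense gene Ube2c. Myl3 shares 4.65% of its exonic bases with antisense Pth1r, and Myl2 (ENSMUSG00000013936) shares 3.08% with antisense Ccdc63. Whether strand was used in counting is not given in the sources used here, so it is not known whether reads of such a pair were told apart. As counted, Ube2c had 14.4 to 106 CPM over the 24 mice, against 6156 to 11730.1 CPM for Tnnc2. Pth1r had 0.494 to 3.24 CPM, against 23.8 to 64.0 CPM for Myl3. Counts per gene do not separate the Myl1 (ENSMUSG00000061816) products of its alternative promoters or the spliced forms of troponin T, and Mylpf (ENSMUSG00000030672) shares no exonic bases with another gene.

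The comparison of PBMT with control in sedentary muscle asked what light did to resting muscle. None of the 10 genes passed the test, where 0.0282% of the 14177 genes tested did (4 genes by edgeR's quasi-likelihood test at a Benjamini-Hochberg adjusted p under 0.05). Without sedentary control replicate 4, 18 of 14273 genes passed, again with none of the 10. All 10 passed the filter on low counts, and 0 of them had an unadjusted p under 0.05, where 7.63% of all genes did. DESeq2 and limma called 0 of them, where they called 0.218% and 0.332% of all genes. The groups overlapped in each of the 10, and failed to overlap in 0.48% of all genes.

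Slow troponin T, Tnnt1, had 3.48, 5.14 and 7.14 CPM in sedentary controls as lowest, median and highest, and 2.92, 4.19 and 7.11 CPM in sedentary PBMT mice. The groups overlapped almost throughout, with 1 PBMT mouse below the lowest control. The log2 fold change was -0.21 with a standard error (SE) of 0.20 (adjusted p = 0.769 by edgeR). Tnni1, the slow inhibitory subunit, ranged from 1.08 to 2.10 CPM in controls and from 0.911 to 1.68 CPM after PBMT. Tnnc1, the calcium sensor that slow fibers share with the heart, ranged from 1.35 to 2.60 CPM in controls and from 1.16 to 2.87 CPM after PBMT. Of the fast troponins, Tnnt3 had 15346, 15994 and 16732 CPM in controls and 15571, 16598 and 18314 CPM after PBMT. Of the PBMT mice 3 lay above the highest control, and the other 3 lay among the controls. The 95% interval of the fold of Tnnt3 ran from 0.937 to 1.19. Tnni2 and Tnnc2 had log2 fold changes of -0.18 and -0.14, which turned to 0.04 and 0.03 without sedentary control replicate 4.

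Of the light chains in sedentary muscle, slow Myl3 had 27.5, 53.9 and 64.0 CPM in controls and 24.4, 48.8 and 57.7 CPM after PBMT. Its log2 fold change was -0.19 (SE 0.23), and 5 of the 6 PBMT mice lay within the range of the controls. Slow Myl2 had 1.38, 3.08 and 5.96 CPM in controls and 1.12, 4.81 and 9.14 CPM after PBMT. Mice of both groups were interleaved, with 1 PBMT mouse above and 1 below all controls. The log2 fold change of Myl2 was 0.55 (SE 0.44, adjusted p = 0.742 by edgeR), and the 95% interval of its fold, 0.734 to 2.90, covered both directions. The fast light chains Myl1 and Mylpf had log2 fold changes of 0.06 and 0.02, with 95% intervals of the fold of 0.922 to 1.19 and 0.897 to 1.15. The median log2 fold change was -0.20 over the slow genes and 0.02 over the fast genes, beside -0.0019 over all genes.

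In fatigued muscle, the comparison of PBMT with control asked what the same light did to muscle that had just worked. Mice ran until exhausted and the paper reports longer runs after PBMT, so light and run time cannot be told apart here. None of the 10 genes passed the test, where 0.0% of the 14574 genes tested did. At an unadjusted p under 0.05 edgeR gave 157 genes higher and 73 lower, 1 of them among the 10, while DESeq2 called 2 genes in all (0.00716%) and 0 of the 10, and 1 gene, outside the 10, passed with the replicate number as a block. The groups overlapped in each of the 10, and failed to overlap in 0.0274% of all genes. The gene below 0.05 was Myl3, the slow essential light chain. It had 23.8, 28.4 and 43.1 CPM in fatigued controls and 30.5, 43.8 and 64.0 CPM in fatigued PBMT mice. PBMT replicates 1, 3 and 4 lay above the highest control, and the other 3 lay inside the range of the controls. The log2 fold change of Myl3 was 0.58 (SE 0.20, unadjusted p = 0.0122, adjusted p = 0.9998 by edgeR), or 1.49-fold with a 95% interval of 1.10 to 2.03.

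The other slow genes of fatigued muscle were set by a few mice. Tnnt1 had 1.01, 6.44 and 15.5 CPM in fatigued controls and 1.58, 4.41 and 16.2 CPM in fatigued PBMT mice. Tnnc1 had 0.185, 2.43 and 8.02 CPM in controls and 0.263, 1.96 and 9.13 CPM after PBMT. Control replicate 6 was the highest control and replicate 4 the lowest in Tnnt1, Tnni1, Tnnc1 and Myl2, and PBMT replicates 1 and 5 were the highest PBMT mice in these 4 genes. Tnni1 ranged from 0.590 to 5.19 CPM in controls and from 0.648 to 5.72 CPM after PBMT. Myl2 ranged from 0.455 to 8.48 CPM in controls and from 1.17 to 14.8 CPM after PBMT. The log2 fold changes were 0.08 for Tnnt1, 0.28 for Tnni1, 0.44 for Tnnc1 and 0.84 for Myl2, with SEs of 0.67, 0.60, 0.89 and 0.79. All 4 turned negative with limma's sample weights, and those of Tnnt1, Tnni1 and Tnnc1 also without PBMT replicate 1 or without PBMT replicate 5. That of Tnnt1 turned negative without control replicate 3, 4 or 5 as well. The 95% interval of the fold of Tnnc1 ran from 0.342 to 5.37.

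The fast genes of fatigued muscle lay close together in both groups. Tnnt3 had 19227, 20538 and 22059 CPM in fatigued controls and 17500.1, 19791 and 24178 CPM after PBMT, and the controls lay inside the range of the PBMT mice. Log2 fold changes were -0.04 for Tnnt3, 0.0007 for Tnni2, -0.03 for Tnnc2, 0.0054 for Myl1 and -0.08 for Mylpf, and no 95% interval of their folds reached below 0.786 or above 1.18. The median log2 fold change was 0.44 over the slow genes and -0.03 over the fast genes, beside 0.0041 over all genes tested. With limma's sample weights the slow genes other than Myl3 were negative.

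Whether the response to light differed between fatigued and sedentary muscle was tested as a difference of differences over all 24 mice. None of the 10 genes passed, where 0.00662% of the 15108 genes tested did (1 gene by edgeR, with 446 higher and 219 lower at an unadjusted p under 0.05; DESeq2 also called 1 gene, or 0.00334%, outside the 10). At an unadjusted p under 0.05 edgeR had 1 of the 10, where 4.4% of all genes were. Myl3 had the smallest p of the 10, with a difference of 0.77 on the log2 scale (SE 0.33, unadjusted p = 0.0285, adjusted p = 0.946 by edgeR).

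Fatigued controls were compared with sedentary controls to see how the genes differed between the states without light. These are the same controls as in the comparisons with light. Of the 10 genes, 2 passed the test, 1 in each direction, where 16.5% of the 14323 genes tested did, so the share was near that of all genes. The same 2 had an unadjusted p under 0.05, where 31.0% of all genes did. Fast troponin T rose in fatigued muscle and the slow essential light chain fell. Tnnt3 had 19227, 20538 and 22059 CPM in fatigued controls and 15346, 15994 and 16732 CPM in sedentary controls. Each fatigued control lay above each sedentary control, and groups failed to overlap in 7.9% of all genes. For Tnnt3 the log2 fold change was 0.38 (SE 0.08, adjusted p = 0.00374 by edgeR), or 1.30-fold. Myl3 had 23.8, 28.4 and 43.1 CPM in fatigued controls and 27.5, 53.9 and 64.0 CPM in sedentary controls. Fatigued control replicates 3 and 5 lay below the lowest sedentary control, and the ranges of the groups overlapped. For Myl3 it was -0.74 (SE 0.18, adjusted p = 0.0141 by edgeR), or 0.598-fold. Without a filter on low counts its adjusted p was 0.0624, where the other settings gave 0.000971 to 0.0403.

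For fast troponins I and C, the outcome of that comparison turned on a single library. Tnni2, the fast inhibitory subunit, had 6798, 7079.95 and 7729 CPM in fatigued controls and 5731, 6140.5 and 12205 CPM in sedentary controls. The highest of these was sedentary control replicate 4, and the other 5 sedentary controls reached at most 6374 CPM, below each fatigued control. For Tnni2 the log2 fold change was 0.04 with all mice (adjusted p = 0.902 by edgeR) and 0.25 without that mouse (adjusted p = 0.00714 by edgeR). Tnnc2, the fast calcium sensor, had 7184, 7983 and 8337 CPM in fatigued controls and 6156, 6488 and 11730.1 CPM in sedentary controls. Here too replicate 4 was the highest, with the other 5 sedentary controls at 7013 CPM or less. For Tnnc2 the log2 fold change was 0.12 with all mice (adjusted p = 0.617 by edgeR) and 0.29 without that mouse (adjusted p = 0.00411 by edgeR). So 4 of the 10 genes passed without it, where 27.1% of the 14619 genes then tested did. Tnni2 and Tnnc2 also passed with limma's sample weights, and Tnnc2 and Mylpf with a trend on transcript length removed.

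The remaining genes of that comparison did not pass in edgeR, apart from Mylpf with the trend on transcript length removed. The fast light chains Myl1 and Mylpf had log2 fold changes of 0.19 and 0.14. Slow Tnnt1, Tnni1, Tnnc1 and Myl2 had log2 fold changes of 0.44, 0.44, 0.52 and 0.09 with SEs of 0.46, 0.39, 0.61 and 0.60. Without fatigued control replicate 6, the highest control in these genes, Tnni1, Tnnc1 and Myl2 turned negative (-0.03, -0.10 and -0.38). Tnnc1 also turned with the replicate number as a block (-0.03). Myl2 did so with that block (-0.23), with limma (-0.17) and without fatigued control replicate 1 or sedentary control replicate 4, 5 or 6. The median log2 fold change was 0.44 over the slow genes and 0.14 over the fast genes, beside -0.0040 over all genes tested. Medians were 0.15 over 20 common filament genes, 0.20 over 9 fast fiber companions and 0.22 over 8 slow fiber companions. Over 6 skeletal muscle fiber markers, some of them also in those lists, the median was 0.22. Of these 6, edgeR called 2 higher and 1 lower and limma called 6, where they called 16.5% and 32.0% of all genes. Of all genes tested, 1341 were called higher and 1025 lower, and with total counts alone as the scaling 991 were higher and 1707 lower. The mitochondrially encoded share was 10.5% to 12.9% in fatigued controls, against 15.5% to 17.0% in sedentary controls other than replicate 4, and its part in these differences was not tested.

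After PBMT, fatigued mice were compared with sedentary mice that had received the same light. Of the 10 genes, 3 passed, all of them fast troponin genes that rose in fatigued muscle, where 26.9% of the 14325 genes tested passed, so the share was again near that of all genes. The same 3 had an unadjusted p under 0.05, where 39.2% of all genes did. This comparison shares no mice with that of the controls. The mitochondrially encoded share was 10.7% to 12.1% in fatigued and 13.8% to 17.1% in sedentary PBMT mice, and its part in the differences was not tested. Tnnt3 had 17500.1, 19791 and 24178 CPM in fatigued PBMT mice and 15571, 16598 and 18314 CPM in sedentary PBMT mice. All but 1 of the 6 fatigued mice lay above the highest sedentary mouse. Fatigued mice had a log2 fold change of 0.26 in Tnnt3 (SE 0.08, adjusted p = 0.0285 by edgeR). Tnnc2 had 7123, 7551 and 9254 CPM in fatigued PBMT mice and 6196, 6605 and 7071 CPM in sedentary PBMT mice. The groups did not overlap, which held for 11.7% of all genes. The log2 fold change of Tnnc2 was 0.23 (SE 0.08, adjusted p = 0.0322 by edgeR). Tnni2 had 6508, 7116 and 8509.6 CPM in fatigued PBMT mice and 5764, 6130.2 and 6943 CPM in sedentary PBMT mice. Of the fatigued mice 4 lay above all sedentary ones. The log2 fold change of Tnni2 was 0.22 (SE 0.08, adjusted p = 0.0465 by edgeR).

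These 3 calls depended on the setting. All 3 held with DESeq2 (smallest adjusted p 0.00606), with limma's sample weights (0.0124), with a trend on transcript length removed (0.000640), with total counts only (0.0204), with the size factors of DESeq2 and with scaling factors found without the 10 genes. None of them held with the replicate number as a block, which joins mice of separate projects by number alone, where the log2 fold changes of Tnnt3, Tnnc2 and Tnni2 were 0.25, 0.23 and 0.21 and the smallest adjusted p was 0.0878. The same was so with a trend on GC content removed (0.18, 0.14 and 0.10, smallest adjusted p 0.137). Tnni2 also lost its call without a filter on low counts (0.23, adjusted p = 0.0610 by edgeR). With all 24 mice in one model Tnnt3 alone passed. Leaving out single mice gave adjusted p of 0.0166 to 0.0704 for Tnnt3, and the call was lost without fatigued PBMT replicate 1 or sedentary PBMT replicate 1, 4 or 5. For Tnnc2 the range was 0.0195 to 0.0781, and the call was lost without any of these mice or fatigued PBMT replicate 3. For Tnni2 it was 0.0351 to 0.109, and the call held only without fatigued PBMT replicate 4 or 5 or sedentary PBMT replicate 3. Slow Myl3, lower in fatigued than in sedentary controls, had 30.5, 43.8 and 64.0 CPM in fatigued and 24.4, 48.8 and 57.7 CPM in sedentary PBMT mice. The groups were interleaved, with a log2 fold change of 0.02 (SE 0.25). Slow Tnnt1, Tnni1 and Tnnc1 had log2 fold changes of 0.74, 0.94 and 1.16 with SEs of 0.52, 0.48 and 0.68, and none passed. With limma's sample weights Tnnc1 had -0.0032. Slow Myl2 had 0.39 (SE 0.68) without a call, and turned negative with those weights and with the replicate number as a block. The median log2 fold change was 0.74 over the slow genes and 0.22 over the fast genes, beside 0.0032 over all genes tested. Medians were 0.12 over 20 common filament genes, 0.13 over 9 fast fiber companions and 0.32 over 8 slow fiber companions. Over 6 skeletal muscle fiber markers, 2 of them called higher by edgeR, the median was 0.14. Of all genes tested, 2037 were called higher and 1822 lower, and with total counts alone as the scaling 1719 were higher and 1986 lower.

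The balance of slow to fast isoforms was followed within each library as the ratio of counts per kilobase, which needs no scaling between mice. In sedentary controls the median ratio was 0.0325% for Tnnt1 to Tnnt3, 0.0143% for Tnni1 to Tnni2, 0.0264% for Tnnc1 to Tnnc2, 0.0317% for Myl2 to Mylpf and 0.569% for Myl3 to Myl1. At those medians the fast transcript outnumbered the slow one 6974-fold for troponin I and 176-fold for the essential light chain. With exon union lengths, chosen after the annotation had been seen, these were 11201-fold and 148-fold. The essential pair stood above the other pairs in all 24 mice, with a lowest ratio of 0.200% where the highest ratio of any other pair was 0.153%.

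None of the 20 ratio tests, 5 pairs in 4 comparisons, passed an adjusted p of 0.05 in a two-sided exact permutation test of 6 mice against 6. The smallest p that the test can give is 0.00216, and 2 of the 20 had an unadjusted p under 0.05, both for Myl3 to Myl1. That ratio had 0.307%, 0.569% and 0.637% in sedentary controls and 0.200%, 0.254% and 0.467% in fatigued controls as lowest, median and highest. All fatigued controls but 1 lay below the lowest sedentary control. The mean log2 ratio was -7.63 ± 0.42 in sedentary and -8.52 ± 0.43 in fatigued controls (SD, n = 6 mice each). The difference of -0.89 had an exact permutation p of 0.00866, or 0.173 adjusted over the 20 tests. Fatigued PBMT mice had 0.300%, 0.380% and 0.589%, with 2 mice above all fatigued controls. The log2 difference from fatigued controls was 0.54, with an exact permutation p of 0.0498, or 0.498 adjusted. Between fatigued and sedentary PBMT mice the log2 difference was -0.09.

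The troponin ratios differed by -0.43 to 0.43 on the log2 scale across the 4 comparisons, and Myl2 to Mylpf by -0.41 to 0.85, with exact permutation p of 0.182 or more. In the troponin pairs and in Myl2 to Mylpf, mice spread more widely in the fatigued groups. The SD of the log2 ratio of Tnnc1 to Tnnc2 was 0.41 in sedentary controls, 0.49 in sedentary PBMT mice, 1.95 in fatigued controls and 1.89 in fatigued PBMT mice. For Tnnt1 to Tnnt3 the SDs were 0.34, 0.41, 1.33 and 1.26 in the same order, and for Myl2 to Mylpf 0.86, 1.00, 1.72 and 1.46. For Myl3 to Myl1 they were 0.42, 0.50, 0.43 and 0.42. No test of spread was run. Summed over the 5 pairs, with no test, slow counts per kilobase had a median of 0.120% of fast ones in sedentary controls, 0.110% in sedentary PBMT mice, 0.0711% in fatigued controls and 0.122% in fatigued PBMT mice. Without the essential light chains the medians were 0.0286%, 0.0267%, 0.0296% and 0.0208% in the same order. The lower median sum of fatigued controls was thus not seen without Myl3 and Myl1. Single mice without that pair ran from 0.00424% to 0.0720% in fatigued controls and from 0.0187% to 0.0385% in sedentary controls.

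**Figure D2:**
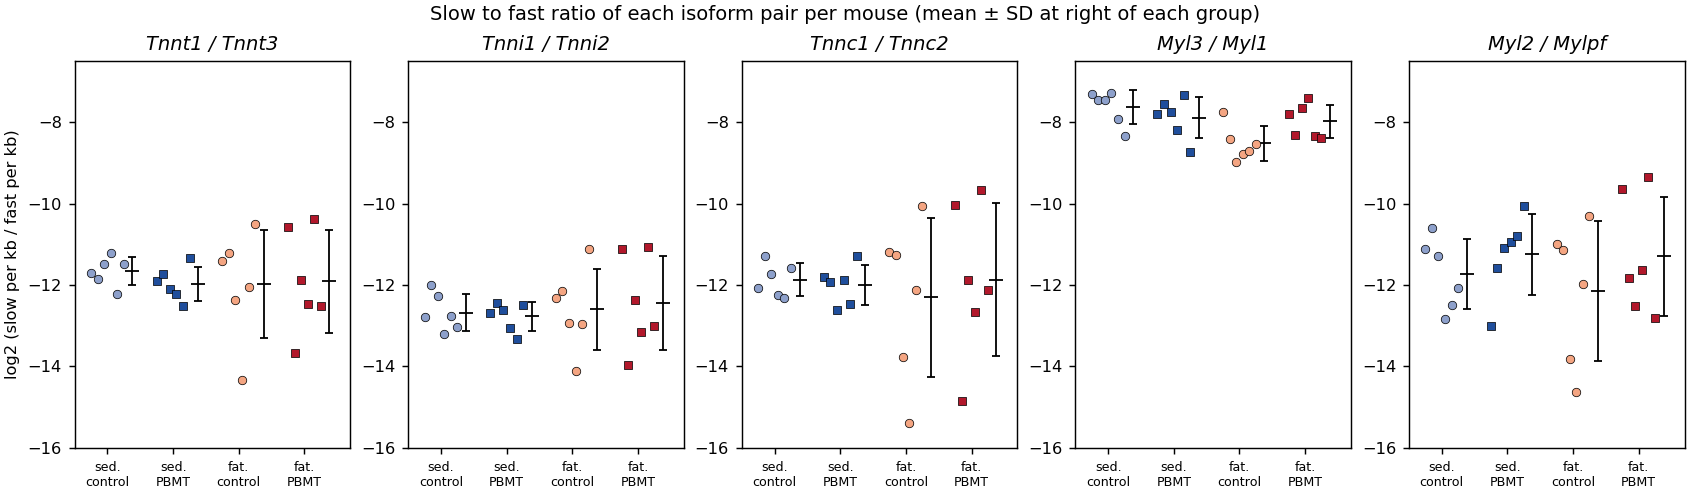
Log2 ratio of slow to fast counts per kilobase in each of 24 mice for the 5 isoform pairs, by group, with the mean and SD of the 6 mice beside the points of each group. Myl3 to Myl1 lies above the other pairs in each mouse, and those other pairs spread more widely in fatigued than in sedentary mice.

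Mice of the same group also differed from each other in ways that the slow genes shared in part. Correlations were taken on log2 CPM minus the group mean over 24 mice, for the 20 pairs within the slow and within the fast genes, after their values had been seen, with p from 100000 permutations within groups and adjusted over the 20. The smallest p these permutations can give is 1e-05. Slow troponins T and I varied together (Pearson r = 0.943, Spearman rho = 0.880, permutation p = 1e-05 and 3.0e-05, adjusted 4.0e-05 and 0.00015). Without the 2 mice farthest from the median r was 0.923, and it was 0.578 in the sedentary project (0.534 without control replicate 4) and 0.980 in the fatigued project. Slow troponins T and C gave r = 0.962 and rho = 0.893 (permutation p = 1e-05 for both, adjusted 4.0e-05 and 0.00010). Their r was 0.935 without the 2 farthest mice, 0.743 in the sedentary project (0.721 without control replicate 4) and 0.979 in the fatigued project. Tnni1 and Tnnc1 gave r = 0.926 and rho = 0.860, with r = 0.892 without the 2 farthest mice, 0.526 in the sedentary (0.491 without control replicate 4) and 0.961 in the fatigued project (permutation p = 2.0e-05 for both, adjusted 6.7e-05 and 0.00013).

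The slow light chains Myl2 and Myl3 had r = 0.0248 with each other. Myl2 varied with Tnnt1 (r = 0.729, rho = 0.653, permutation p = 0.00121 and 0.00389, adjusted 0.00250 and 0.00778), and r was 0.715 without the 2 farthest mice. By project r was 0.880 in fatigued and 0.0582 in sedentary mice, or 0.244 in sedentary mice without control replicate 4. With Tnni1 and Tnnc1, Myl2 had r of 0.859 and 0.846 in fatigued and 0.189 and 0.139 in sedentary mice, or 0.319 and 0.262 without that mouse, and no difference between projects was tested. Myl3 passed with none of the other slow genes, with r between -0.0051 and 0.121 and permutation p of 0.453 or more. By project its r ran from 0.0953 to 0.121 in fatigued mice and from -0.407 with Tnnc1 (-0.513 without control replicate 4) to 0.238 with Tnni1 in sedentary mice. The 3 mice highest in slow troponins, fatigued control replicate 6 and fatigued PBMT replicates 1 and 5, had 30.7, 48.9 and 31.5 CPM of Myl3, within the range of the other fatigued mice.

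**Figure D3:**
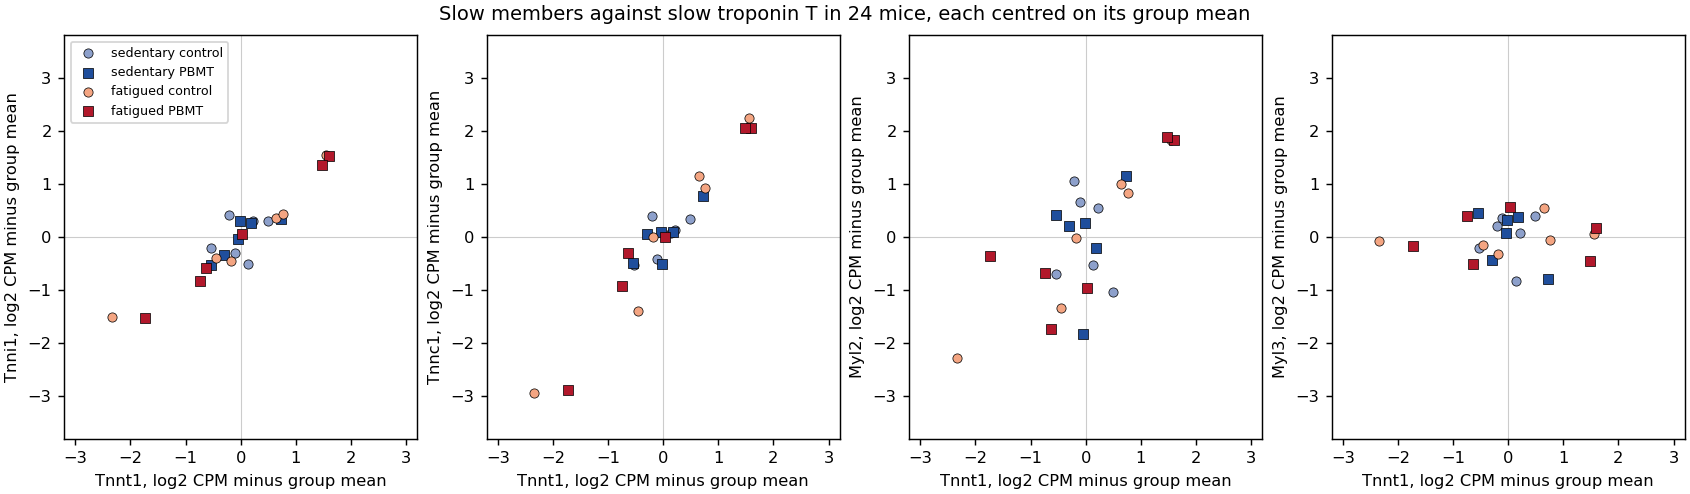
Levels of Tnni1, Tnnc1, Myl2 and Myl3 (vertical axes) against slow troponin T, Tnnt1 (horizontal axes), each as log2 CPM minus the group mean, with a point for each of 24 mice and a color and shape for each group. Points of Tnni1 lie along a line with Tnnt1 (r = 0.943), and those of Myl3 do not (r = 0.013).

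The slow myosin gene Myh7 was the gene most like the mean of the 5 slow genes among 15098 genes, by Pearson r over 24 mice, given as a description (r = 0.937, with 0.820 in the sedentary and 0.948 in the fatigued project). Myh7 had 35.5, 31.6 and 41.8 CPM in the 3 mice highest in slow troponins, against 0.228 to 8.64 CPM in the other fatigued mice. Next came Tpm3, the slow tropomyosin gene (r = 0.836), Hebp1 (0.828), Sln, a regulator of the calcium pump (0.824), Bcap31 (0.815), Fxyd6 (0.815), P3h4 (0.807), Rpl38 (0.805), Sbk3 (0.793) and Cst3 (0.787). In the fatigued project these 9 genes had r of 0.832 to 0.959. In the sedentary project r was 0.365 for Tpm3, 0.595 for Hebp1, 0.385 for Sln, 0.487 for Bcap31, 0.324 for Fxyd6, 0.485 for P3h4, 0.380 for Rpl38, 0.601 for Sbk3 and 0.600 for Cst3. Myl3 was compared with 17 companion genes chosen after the values had been seen. Of these 17, it had the highest r with Myoz2, a Z-disc gene of slow fibers (r = 0.605, rho = 0.583, permutation p = 0.00789 and 0.00998, adjusted 0.0671 and 0.0848). Next was the fast myosin gene Myh2 (r = 0.562, rho = 0.566, permutation p = 0.00715 and 0.00655, adjusted 0.0671 and 0.0848), and none of the 17 passed after adjustment. The r of Myl3 with Myh7 was -0.0092. Over all genes compared, with no test, those most like Myl3 were Gm5239 (r = 0.719, mean 0.259 CPM), Hoxc11 (0.704) and 2310069B03Rik (0.703). In that ranking Myoz2 came at 30 and Myh2 at 72.

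Among the fast genes, Tnni2 and Tnnc2 varied together (r = 0.968, rho = 0.875, permutation p = 1e-05 for both, adjusted 4.0e-05 and 0.00010). Without sedentary control replicate 4 r was 0.900, without the 2 farthest mice 0.858, and it was 0.987 in the sedentary (0.917 without that mouse) and 0.871 in the fatigued project. Tnnt3 and Tnni2 gave r = 0.530 and rho = 0.677 (permutation p = 1e-05 and 0.00012, adjusted 4.0e-05 and 0.00034), with r of 0.774 without sedentary control replicate 4, 0.508 without the 2 farthest mice, 0.523 in the sedentary (0.685 without control replicate 4) and 0.962 in the fatigued project. The fast light chains Myl1 and Mylpf gave r = 0.829 and rho = 0.830 (permutation p = 3.0e-05 and 4.0e-05, adjusted 8.6e-05 and 0.00016), with r of 0.794 without the 2 farthest mice, 0.569 in the sedentary (0.557 without control replicate 4) and 0.894 in the fatigued project. Between light chains and troponins r ran from 0.111 to 0.429 with no adjusted p under 0.05, and of the rho values that of Tnnc2 with Mylpf passed (rho = 0.471, permutation p = 0.0174, adjusted 0.0317). The genes most like the mean of the 5 fast genes, by the same description, were Park7 (r = 0.942), the calcium buffer gene Pvalb (0.928), Aimp1 (0.912), Tpm1, the fast tropomyosin gene (0.899), Mlf2 (0.888), Emc10 (0.882), Psmd13 (0.877), Rpl7 (0.868), Psmb6 (0.866) and Ufc1 (0.857). Without sedentary control replicate 4 the r of Park7 was 0.907 and that of Ufc1 0.762.

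Genes that work beside the troponins and light chains gave 0 calls with light among 60 tested by edgeR and limma and 62 tested by DESeq2. In sedentary muscle 0 of 8 slow fiber companions, 0 of 9 fast fiber companions, 0 of 20 common filament genes, 0 of 6 tested other troponins and light chains and 0 of 17 fiber type regulators passed, with 6 of the 60 at an unadjusted p under 0.05, where 7.63% of all genes were. The smallest p among them was that of Myl6b, an essential light chain of slow fibers, with a log2 fold change of -0.33 (unadjusted p = 0.00548, adjusted p = 0.430 by edgeR). Of the other genes with the 3 smallest p of each list, slow tropomyosin Tpm3 had -0.22 and the slow calcium pump Atp2a2 0.12. Fast myosin Myh2 had -0.32, Myoz1 0.10 and Casq1 -0.10. Among filament genes the titin cap gene Tcap had -0.36, the filament regulator Lmod2 -0.35 and nebulin, Neb, 0.24. Among other troponins and light chains Myl9 had -0.16, Tnnt2 -0.23 and Myl12b -0.44, and among regulators Eya1 had 0.27, Nfatc1 0.19 and Ppargc1a 0.28. The symbol Myl12b matched 2 gene identifiers. Where edgeR tested both, the one with the smaller p in that comparison stands for it here and below. In fatigued muscle the same lists had 1 gene at an unadjusted p under 0.05, where 1.58% of all genes were. It was Hdac4, a repressor of muscle genes, with a log2 fold change of 0.29 (unadjusted p = 0.0105, adjusted p = 0.9998 by edgeR). Of the others with the 3 smallest p of each list, Rcan1 had 0.51 and Myod1 0.51, Myoz2 0.23, Myl6b 0.12 and Atp2a2 0.12. Fast Actn3, Mybpc2 and Atp2a1 each had -0.08, filament genes Mylk2, Mybpc1 and Myom2 had -0.18, -0.11 and -0.11, and Myl12b, Myl9 and Myl6 had 0.54, -0.15 and 0.07.

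Of the 60 companion genes tested, 15 were called between fatigued and sedentary controls, where 16.5% of all genes were, and 19 after PBMT, where 26.9% were. Between controls 26 of the 60 were called without sedentary control replicate 4, where 27.1% of all genes were, and 30 by limma, where 32.0% were. DESeq2 called 20 of 62 between controls, where it called 11.1% of all genes, and 23 of 61 after PBMT, where it called 15.9%. Between controls, fast fiber companions made up 2 of the 15 by edgeR, 5 of the 26 without that mouse, 7 of the 30 by limma and 3 of the 20 by DESeq2. With all mice in edgeR, 1 slow fiber companion was called higher and 1 lower of 8. Atp2a2, the slow calcium pump, had a log2 fold change of 0.54 (adjusted p = 0.000566 by edgeR), and Casq2, the slow calcium store, -0.51 (adjusted p = 0.0470 by edgeR), beside -0.39 for Myoz2, not called. Of the 9 fast fiber companions 2 were called higher, the fast myosin Myh4 (log2 fold change 0.87) and the fast calcium pump Atp2a1 (0.42), and Mybpc2 had 0.47 without a call. Of 20 common filament genes 4 were called higher, among them actin Acta1 (0.37), Lmod2 (0.49) and Nrap (0.37). Of 6 other troponins and light chains edgeR called 0 and limma 1, and in edgeR Myl9, Myl6 and Myl4 had 0.26, 0.11 and 0.18. Of 17 regulators 5 were called higher and 2 lower, among them Ppargc1a, a coactivator tied to slow fibers (2.11), the calcineurin target Rcan1 (1.35) and Six4, a factor of the fast program (-0.83). After PBMT, the fatigued mice had 2 slow fiber companions called higher, Atp2a2 (0.54) and Tpm3 (0.58), and 3 fast ones, Myh4 (0.66), Casq1 (0.36) and Atp2a1 (0.29). There were also 5 filament genes called higher, among them Tpm1 (0.27), Lmod2 (0.86) and Acta1 (0.30), 1 of 6 other troponins and light chains, Myl12b (1.05), and 5 regulators higher and 3 lower, among them Hdac4 (0.74), Rcan1 (1.80) and Six4 (-0.99). Myl6b, Myl6 and Myl9 had 0.28, 0.25 and 0.27 without a call.

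Of 32 markers of other cells tested, 6 were called between fatigued and sedentary controls, where 16.5% of all genes were, and 7 after PBMT, where 26.9% were. Without sedentary control replicate 4 there were 3 between controls, where 27.1% of all genes were called. DESeq2, which tested more genes at low counts, called 8 of 33 between controls and 16 of 35 after PBMT, where it called 11.1% and 15.9% of all genes. Limma called 6 and 9 of 32, where it called 32.0% and 32.4%. Their part in the results was not tested. Calls given by list below are those of edgeR with all mice unless another tool is named. Smooth muscle markers, led by Acta2, had a median sum of 154 CPM in sedentary controls, 136 in sedentary PBMT mice, 229 in fatigued controls and 198 CPM in fatigued PBMT mice, with 3 of 5 genes called higher in fatigued controls and 2 after PBMT. Tendon markers, led by Fmod, had median sums of 158, 165, 327 and 299.8 CPM in the same order, with 1 and 2 of 5 genes called higher. Adipocyte markers, led by Adipoq, had 1 and 0 of 4 called higher by edgeR, with median sums of 8.89, 8.45, 9.77 and 12.3 CPM. DESeq2 called 1 and 1 of them and limma 0 and 0. Without sedentary control replicate 4, edgeR called 0 between controls. Myeloid markers, led by Lyz2, had 1 of 4 called higher in both, with median sums of 46.7, 32.2, 56.8 and 48.9 CPM, and of 4 endothelial markers 0 and 1 were called higher. Developmental myosin markers, led by Actc1, had 1 of 4 called higher in fatigued controls and 0 after PBMT, with median sums of 256, 233, 452 and 435 CPM. That call was lost without sedentary control replicate 4 and with limma. No Schwann cell or erythrocyte marker was called by edgeR in either comparison of fatigued with sedentary mice. Of 4 keratinocyte markers edgeR tested 1, Krt10, and called it lower after PBMT. There DESeq2 tested 4 and called 4, and limma called 0. The highest sum of these markers was 25.5 CPM in a sedentary PBMT mouse. Heart markers, some of which share families with the genes described here, had 2 of 6 genes tested and 0 calls, and Myl7 had at most 1 count in any mouse. With light, the 8 lists of markers of other cells had 0 of 32 genes called in either state by edgeR or limma, and 0 of 35 in sedentary and 0 of 33 in fatigued muscle by DESeq2. In edgeR there were 3 in sedentary and 0 in fatigued muscle at an unadjusted p under 0.05, where 7.63% and 1.58% of all genes were.

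Promoter windows of 250 bases before the RefSeq start were read from RefSeq on GRCm38.p6 for 8 of the 10 genes, in 10 windows. The set of windows used held none for Tnnt3 and Tnni2. Both strands were searched for the E-box CANNTG, the MCAT element CATTCC, the TATA letters TATAAA and the MEF2 site by name. The E-box letters were in a window of all 8 genes, where 66.2% of 32851 windows hold them. CATTCC was in windows of 3 genes, Myl1, Myl3 and Tnnc1, against 12.6% of all windows, and TATAAA in windows of 3 genes, Myl1, Myl2 and Tnnt1, against 12.4%. Both windows of Myl2, from 122092474 to 122092723 and from 122092939 to 122093188, lie before its GENCODE start at 122100951 on chromosome 5 and overlap no gene. A MEF2 site was in windows of 0 of the 8 genes, against 2.92% of all windows. A match is a description of letters. Each gene was counted once over its windows, of which Myl2 and Tnni1 have 2 each, while the shares are of single windows. By GENCODE the windows of Myl1, Tnnc2 and Myl3 hold 103, 107 and 32 exonic bases of their own gene. That of Mylpf lies within Mylpf and holds 0. The windows of the 3 slow troponins are shown because these genes varied together between mice, with matches to any of the motifs in capitals: Tnnt1 at chr7:4515976-4516225 on the minus strand, Tnni1 at chr1:135799171-135799420 on the plus strand and Tnnc1 at chr14:31208062-31208311 on the plus strand, the last within the antisense gene Nisch. By GENCODE the windows of Tnnt1 and Tnni1 hold 29 and 19 exonic bases of their own gene, and that of Tnnc1 holds 0. Tnni1 is shown by the first of its 2 windows, which has 4 E-boxes, and the other has 2.
Tnnt1: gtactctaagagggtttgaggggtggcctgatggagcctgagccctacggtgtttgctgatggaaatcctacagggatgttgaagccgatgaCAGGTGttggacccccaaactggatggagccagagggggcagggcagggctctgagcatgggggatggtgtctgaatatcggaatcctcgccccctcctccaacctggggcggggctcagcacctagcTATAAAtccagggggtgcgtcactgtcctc
Tnni1: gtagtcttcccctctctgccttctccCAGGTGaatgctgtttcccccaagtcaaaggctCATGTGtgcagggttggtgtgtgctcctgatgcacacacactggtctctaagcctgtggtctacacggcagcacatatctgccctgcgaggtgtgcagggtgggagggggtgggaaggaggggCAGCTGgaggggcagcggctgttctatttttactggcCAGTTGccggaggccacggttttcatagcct
Tnnc1: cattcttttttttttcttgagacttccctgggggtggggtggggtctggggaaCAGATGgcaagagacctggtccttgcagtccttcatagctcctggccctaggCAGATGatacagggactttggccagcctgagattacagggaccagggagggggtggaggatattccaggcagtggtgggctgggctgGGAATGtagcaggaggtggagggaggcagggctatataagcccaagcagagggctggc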

How the data were processed

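Whole-number read counts per gene and mouse were used as deposited by the authors, from directional poly(A) libraries read from both ends. The submitters' notes name GRCm38, Trimmomatic, STAR 2.7.1a, Picard 2.20.4, StringTie 2.0.4, featureCounts 1.6.0 and HTSeq, with no strand setting or annotation release. Symbols and lengths came from GENCODE M21, which matched 55227 of 55487 identifiers. All genes were fitted in edgeR 4.0.16 (TMM scaling, filterByExpr minimum count 10, robust quasi-likelihood), called at a Benjamini-Hochberg adjusted p under 0.05. DESeq2 1.42.0, limma 3.58.1 (voom with sample weights), other scalings, no filter, trends on length or GC content, a replicate block, all mice in one model and leaving out each mouse were alternatives, run in R 4.3.3. The 95% intervals are the edgeR log2 fold change ± the t quantile for the residual degrees of freedom × SE. Ratios used the longest principal transcript, and tests on them the exact permutation test over 924 arrangements (Python 3.11.15, numpy 2.4.6, pandas 2.3.3, scipy 1.17.1). Named were the 10 genes, companion genes called with light and the 3 with the smallest p in each companion list for each of the 4 comparisons of groups. By Pearson r, the 10 genes most like the slow, the 10 most like the fast genes and the 3 most like Myl3 were also named. The genes and lists were chosen with earlier results of these data known.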

Additional observations from a re-analysis of the deposited data

Results flagged for a closer look

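Of 60 sets of 6 values, all from the same 4 groups of mice, 6 held a sample far from the others. Chance alone gives about 1 in 20 sets, but sets that share mice are not independent. Sedentary control replicate 4 had 12205 CPM of Tnni2, where the other 5 mice of its group had 5731 to 6374, and 11730.1 CPM of Tnnc2, where they had 6156 to 7013. Fatigued PBMT replicate 1 had 8509.6 CPM of Tnni2, where the others had 6508 to 7192, and 9254 CPM of Tnnc2, where they had 7123 to 7921. Sedentary PBMT replicate 6 had 2.87 CPM of Tnnc1, where the others had 1.16 to 1.78. Fatigued control replicate 1 had 43.1 CPM of Myl3, where the others had 23.8 to 30.7.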

How the results depend on the processing

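Tnnt3 kept its call between fatigued and sedentary controls in the 10 other settings and the 12 fits without a mouse (log2 fold change 0.31 to 0.46). Fits in other settings covered the 10 genes and, for each comparison of groups, the 3 companions with the smallest p of each list. Of these fitted values 1071 kept direction and side of the threshold, 20 gained a call, 30 lost one and 29 reversed. Without single mice 1317 kept both, 10 gained, 61 lost and 52 reversed. Counts of the slow genes were as low as 11 in a mouse, for Tnnc1, while Myl3 had 1248 or more in each mouse. No ratio passed an adjusted p of 0.05 in any setting. Length by exon union was chosen after seeing the annotation; it multiplies a ratio by the same factor in each group, and moved 3 medians by more than the SD of the mice, to 0.0238% for Tnnt1 to Tnnt3 and 0.00893% for Tnni1 to Tnni2 in sedentary controls and 0.00965% for Tnni1 to Tnni2 in sedentary PBMT mice. In fatigued controls and fatigued PBMT mice, where mice spread more, Tnni1 to Tnni2 went from 0.0162% to 0.0101% and from 0.0155% to 0.00968%, and Myl2 to Mylpf went from 0.0317% to 0.0200% in sedentary controls. The mean levels per kilobase of Tnnt3, Tnni2, Myl3, Myl1 and Mylpf also moved by more than their SD with that length, tried for levels after the results had been seen. The cause was not tested for any value that follows.

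The count of genes called with light in sedentary muscle, 4, was 16 with no filter on low counts, 60 with DESeq2, 12 with the length trend removed, 47 with limma, 16 with the GC trend removed, 1 with all mice in one model and 2 to 20 without single mice, with 18 without sedentary control replicate 4. In fatigued muscle, 0 became 2 with DESeq2. Between controls, 2366 became 4583 with limma and 1681 to 3956 without single mice, and the difference between states had 1 to 3 genes without single mice.

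Deviations from the group mean of mice with the same replicate number correlated by -0.072 to 0.066 in sedentary and -0.085 to 0.33 in fatigued mice. In fatigued mice replicates 1, 3, 4 and 5 had 0.22, 0.21, 0.14 and 0.33. Mice with different numbers were not compared in this way, so these values cannot decide whether fatigued mice were paired by number. Across the projects, deviations of mice with the same number correlated by -0.13 to 0.031 in controls and -0.27 to 0.0082 in PBMT mice. With the number as a block, light gave 11 calls in sedentary and 1 in fatigued muscle, 14 and 1 with the length trend also removed, and 13 and 1 with the GC trend also removed. With the block alone, log2 fold changes reversed for Tnni2 with light in fatigued muscle (-0.0026), for Tnnc1 (-0.025) and Myl2 (-0.23) between controls and for Myl2 after PBMT (-0.12). With the block and a trend, they reversed for Tnnc2 with light in sedentary muscle (0.0053, length) and Tnni2 with light in fatigued muscle (-0.00699, length; -0.00888, GC).

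With no filter, light in fatigued muscle gave -0.0045 for Tnni2 and -5.1e-06 for Myl1. With the length trend removed, Tnni2 there had -0.00691, Tnnc2 had -0.014 in the difference between states, and the ratio of Tnni1 to Tnni2 had -0.024 between controls. With limma, light in sedentary muscle gave 0.022 for Tnni2 and 0.012 for Tnnc2. Light in fatigued muscle gave -0.57 for Tnnt1, -0.39 for Tnni1, -0.046 for Tnni2, -0.36 for Tnnc1, -0.061 for Myl2 and -0.026 for Atp2a2. Also with limma, Myl2 had -0.17 between controls and -0.51 after PBMT, and after PBMT Tnnc1 had -0.0032 and Mylpf -0.020. With the GC trend removed, Tnni2 had -0.00622 with light in fatigued muscle and -6.01e-05 between controls, and after PBMT Myl3 had -0.028 and Mylpf -0.036. With total counts only, Mylpf had -0.017 with light in sedentary muscle and Tnni2 -0.030 between controls.

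As a difference of medians, log2 ratios with light in sedentary muscle were 0.11 for Tnni1 to Tnni2 and 0.0057 for Tnnc1 to Tnnc2. With light in fatigued muscle they were -0.44 for Tnnt1 to Tnnt3, -0.060 for Tnni1 to Tnni2, -0.31 for Tnnc1 to Tnnc2 and -0.16 for Myl2 to Mylpf. Between controls they were 0.21 for Tnnc1 to Tnnc2 and 0.12 for Myl2 to Mylpf, and after PBMT -0.16 for Tnnt1 to Tnnt3, -0.029 for Tnni1 to Tnni2 and -0.11 for Tnnc1 to Tnnc2. On a linear scale, ratios between controls gave 0.038 for Tnnt1 to Tnnt3, 0.33 for Tnnc1 to Tnnc2 and 0.030 for Myl2 to Mylpf, and 0.33 for Myl2 to Mylpf after PBMT.

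Without single mice, fold changes with light in sedentary muscle ranged from -0.23 to 0.038 for Tnni2, -0.19 to 0.032 for Tnnc2 and -0.015 to 0.044 for Mylpf. In fatigued muscle they ranged from -0.30 to 0.48 for Tnnt1, -0.098 to 0.75 for Tnni1, -0.052 to 0.029 for Tnni2, -0.014 to 1.06 for Tnnc1 and -0.043 to 0.068 for Myl1. Between controls they ranged from -0.028 to 0.63 for Tnni1, -0.025 to 0.25 for Tnni2, -0.10 to 0.77 for Tnnc1 and -0.38 to 0.34 for Myl2. After PBMT they ranged from -0.11 to 0.12 for Myl3, -0.064 to 0.68 for Myl2 and -0.021 to 0.096 for Mylpf. The difference between states ranged from -0.094 to 0.69 for Tnnt1, -0.040 to 0.24 for Tnni2, -0.063 to 0.17 for Tnnc2, -0.11 to 0.0037 for Myl1 and -0.17 to 0.76 for Myl2.

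Log2 ratios without single mice ranged, with light in sedentary muscle, from -0.20 to 0.039 for Tnni1 to Tnni2 and from -0.27 to 0.0014 for Tnnc1 to Tnnc2. In fatigued muscle they ranged from -0.40 to 0.42 for Tnnt1 to Tnnt3, -0.15 to 0.46 for Tnni1 to Tnni2 and -0.19 to 1.03 for Tnnc1 to Tnnc2. Between controls they ranged from -0.62 to 0.15 for Tnnt1 to Tnnt3, -0.22 to 0.38 for Tnni1 to Tnni2, -0.88 to 0.19 for Tnnc1 to Tnnc2 and -0.78 to 0.084 for Myl2 to Mylpf. After PBMT they ranged from -0.25 to 0.41 for Tnnt1 to Tnnt3, -0.32 to 0.72 for Tnnc1 to Tnnc2, -0.44 to 0.25 for Myl2 to Mylpf and -0.26 to 0.022 for Myl3 to Myl1.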
